A study of Homo sapiens with 3 samples.

Results

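The regions bound by CK2α and those bound by RNA polymerase II (Pol II) were compared in LNCaP cells treated with dihydrotestosterone (DHT). Members were all regions of 2 deposited lists from chromatin immunoprecipitation sequencing (ChIP-seq), 13382 for CK2α and 21819 for Pol II of vehicle cells, or 35201 of the 59983 regions in the 3 lists of the series. LNCaP is a human prostate carcinoma line that responds to androgen, used here at passages 40 to 45 after 3 days in medium with charcoal-stripped serum. Both groups received 100 nM DHT. The CK2α cells carry a treatment label of 2.5 hours of DHT and no vehicle, although the protocol states 90 min. The Pol II cells had 25 μM DMSO, as the labels word it, for 2.5 hours, with DHT in the final 1.5 hours. Each side was 1 library, so replicate error was unknown and no tests were run. The sides also differed in vehicle and, by the labels, in the time in DHT, which cannot be told apart from the difference between the proteins. CK2α was precipitated with an Abcam antibody and Pol II with the Santa Cruz antibody N-20. The third list of the series, Pol II of cells given 25 μM of the CK2 inhibitor TBBz, served only as a second Pol II list. The vehicle library also carries a source label that mentions TBBz; it was taken as vehicle from its treatment label.

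CK2 is a serine/threonine kinase built from catalytic α or α′ subunits and regulatory β subunits, and it phosphorylates many nuclear proteins, among them components of the transcription machinery. Pol II transcribes protein-coding genes. It typically accumulates just downstream of the transcription start, where it pauses before productive elongation, and spreads along the gene body and past its end at lower density. The title of the series places the comparison in the control of elongation, and the question was where CK2α sits relative to Pol II. Regions are given by hg19 position. Gene names and gene parts (start, body, end) were not analysed here, because no hg19 annotation was used and positions were not carried over from another build; the regions are therefore described by distance, order, crowding and locus.

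The lists were made from 19021404 CK2α tags and 15466579 Pol II tags. The CK2α regions held 1.65% of their library's tags and a mean of 23.5 tags each, the Pol II regions 6.79% and 48.1. The threshold for calling a region was 12 tags for CK2α and 11 for Pol II. How near the later regions of a list stood to it was not tested. No control library was named for either. Of the CK2α candidates 76.2% had been removed for standing less than 4-fold above their surroundings, against 53.7% for Pol II, so a region missing from a list can be a site of broad signal. The score column is constant, and the position in each list was taken to follow strength, which was not tested. Intervals are exact (Clopper-Pearson) at 95% and cover counting error only.

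Most CK2α regions lay on or close to a Pol II region. Of all CK2α regions, 36.8% (4929) overlapped a Pol II region by at least 1 bp, and a further 5550 had a Pol II centre within 1 kb without overlap, which is 41.5% (40.6 to 42.3%). Together 78.3% had a Pol II centre within 1 kb. Past that distance the lists separated sharply. Only 308 CK2α regions (2.30%) had their nearest Pol II centre between 1 and 2 kb away, 616 (4.60%) between 2 and 10 kb, 1560 (11.7%) between 10 and 100 kb and 419 (3.13%) farther. From the side of Pol II, 22.6% of regions overlapped CK2α and 47.5% had a CK2α centre within 1 kb. The remaining 11457 Pol II regions had none, and for 9405 of them the nearest CK2α centre was over 10 kb away.

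The number of CK2α centres fell off gradually with distance from Pol II over the first 1000 bp. A total of 2846 CK2α centres (21.3%) lay within 99 bp of the nearest Pol II centre, 2067 between 100 and 199 bp, 1738 between 200 and 299 bp, 1299 between 300 and 399 bp and 989 between 400 and 499 bp. From there the numbers dropped to 94 at 900 to 999 bp and 68 at 1000 to 1099 bp. Of the CK2α regions beside Pol II without overlap, 4626 of 5550 (83.4%) were within 600 bp. Between the vehicle and TBBz Pol II lists the centres lay closer: 67.5% of vehicle Pol II centres had a TBBz Pol II centre within 99 bp. The CK2α list had nearly the same distance profile against the TBBz Pol II list, with 19.7% within 99 bp and a median of 221 bp (95% interval 215 to 227 bp) among pairs within 1 kb, against 219 bp (213 to 225 bp) for vehicle Pol II.

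**Figure D1:**
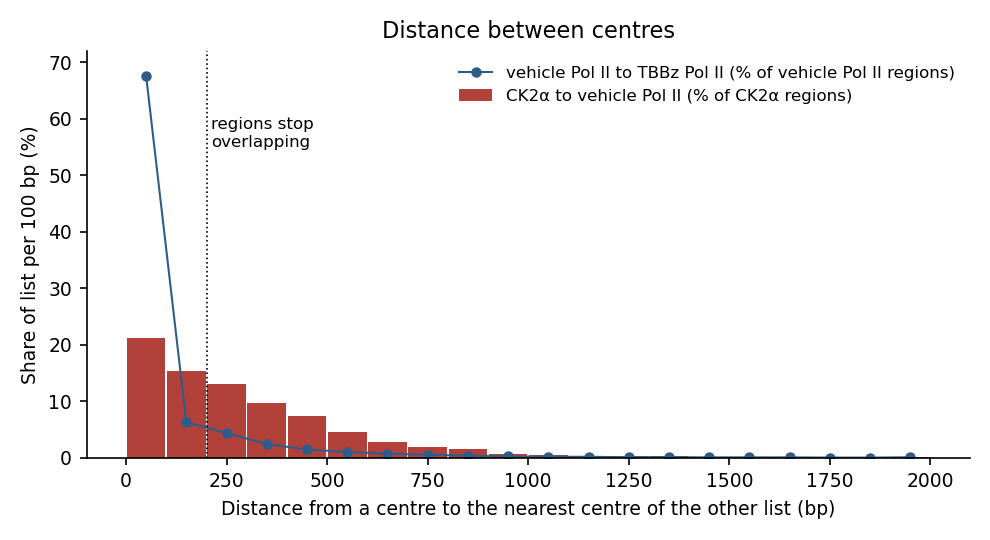
Distance in bp from each centre to the nearest centre of the other list, as a share of the list per 100 bp. Bars show CK2α to vehicle Pol II and fall from 21.3% to 0.702% over the first 1000 bp, whereas the line, vehicle Pol II to TBBz Pol II, has 67.5% in the first 100 bp. The dotted line marks the distance from which regions no longer overlap.

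CK2α lay on either side of Pol II in similar numbers. Among CK2α regions, 4833 had a Pol II centre within 1 kb only at lower coordinates and 4999 only at higher coordinates. A Pol II centre within 1 kb on both sides was found for 647 CK2α regions, 6.17% of those with any (5.72 to 6.65%). Conversely, 892 Pol II regions had CK2α on both sides, 8.61% of those with any (8.08 to 9.16%). The lists give every region the same strand, so upstream and downstream were not distinguished.

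Closely spaced CK2α regions tended to enclose a Pol II region. Neighbouring CK2α centres 500 to 1500 bp apart formed 1297 pairs, and 885 of these (68.2%, 65.6 to 70.8%) had a Pol II centre between them. Only 84 pairs (6.48%) had no Pol II centre inside or within 500 bp of either member. The reverse arrangement was less frequent among the 1941 Pol II pairs with the same spacing: 688 (35.4%, 33.3 to 37.6%) had a CK2α centre between them and 717 (36.9%) had none inside or within 500 bp. Per kb of sequence, Pol II centres numbered 0.873 inside CK2α pairs and 0.396 in the flanking 500 bp, while CK2α centres numbered 0.446 inside Pol II pairs and 0.378 in the flanks. A point inside a pair is close to both members, which by itself raises the inside value, and Pol II is near CK2α more often than the reverse.

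The enclosed centres were also placed differently. Where a CK2α pair held 1 Pol II centre (832 pairs), 452 of these (54.3%, 50.9 to 57.8%) lay in the middle 50% of the interval and 427 overlapped neither CK2α region. Where a Pol II pair held 1 CK2α centre (640 pairs), 264 (41.3%, 37.4 to 45.2%) lay in the middle 50%, and the numbers were highest in the outermost 10% at either end, with 87 each, against 50 and 53 in the central bins. Pol II between CK2α centres had its highest count, 106, just before the midpoint and its lowest, 62, in the first 10%. Its other bins held between 74 and 92, without a steady fall from the middle to the right end. An even spread would put 50% of centres in the middle 50%, so the excess of Pol II there was small. The file headers give a minimum distance of 500 bp for peak finding, yet 32 CK2α pairs (413 to 495 bp apart) and 23 Pol II pairs (404 to 499 bp apart) were closer. These were left out of the counts above; 17 of the 32 and 5 of the 23 had a centre of the other list between them.

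**Figure D2:**
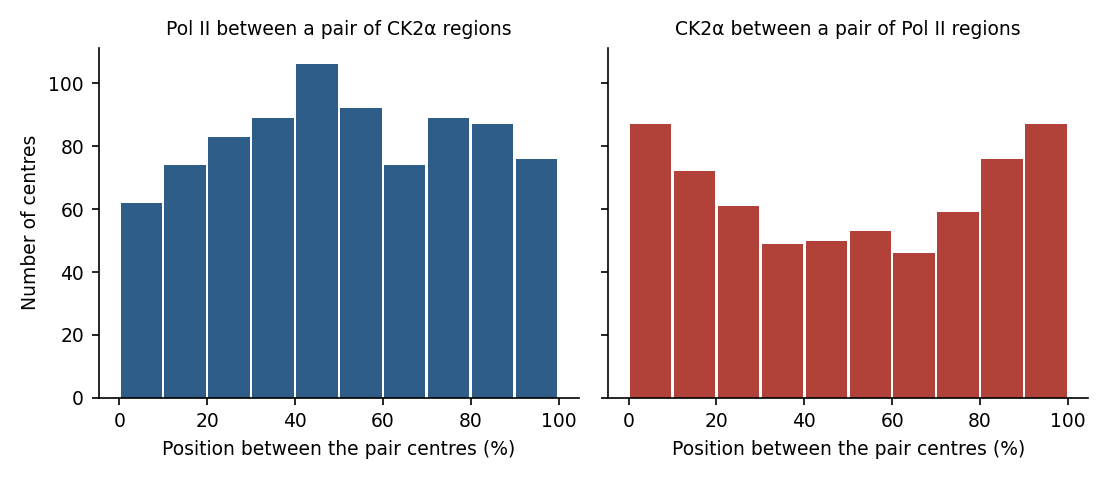
Position of the enclosed centre, as a percentage of the distance between the pair centres, for pairs 500 to 1500 bp apart that enclose 1 centre. Pol II between CK2α regions (left, 832 centres) was spread nearly evenly, with a small excess in the middle. CK2α between Pol II regions (right, 640 centres) was most frequent at both ends. Bars are numbers of centres per 10% of the interval.

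CK2α without nearby Pol II belonged to the later parts of its list. Of the CK2α regions in the leading 10%, 94.2% had a Pol II centre within 1 kb (92.9 to 95.4%), and this stayed at 95.1%, 94.3% and 92.2% in the next 3 sections of 10%. It then fell to 48.4% (45.7 to 51.1%) in the last 10%. Regions with the nearest Pol II over 10 kb away made up 2.84% of the first 10% and 40.4% of the last 10%. Direct overlap fell from the start, from 57.4% in the first 10% over 47.2% to 41.9% in the third. Among pairs within 1 kb the median distance was 134 bp in the first 10% of the CK2α list, 205 bp in the second and between 222 and 251 bp in the remaining sections.

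Pol II regions also had the other factor less often in later sections, at a lower level and with an earlier fall. A CK2α centre lay within 1 kb of 73.2% of the first 10% of Pol II regions. In the next 3 sections it was 72.5%, 69.6% and 64.8%, in the fifth 58.0% and in the last 14.8% (13.3 to 16.4%). Thus 20.8% of the leading Pol II regions had no CK2α centre within 10 kb, against 2.84% of the leading CK2α regions with no Pol II. The lists differ in length, with 21819 Pol II and 13382 CK2α regions, which was not adjusted for in these shares. With the Pol II list shortened to the length of the CK2α list, overlap over the whole lists was 28.5% from either side. The distances of the remaining pairs did not follow the course seen along the CK2α list: the median among pairs within 1 kb was 227 bp for the first 10% of Pol II regions, between 220 and 240 bp in the second to the fifth and between 141 and 196 bp from the sixth on.

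**Figure D3:**
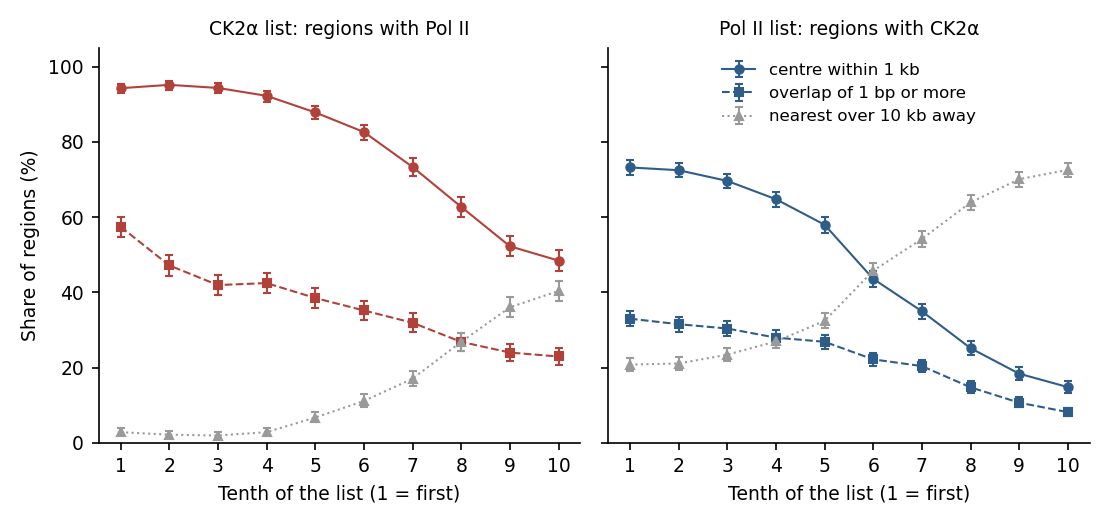
Share of regions (%) with the other factor by 10% section of the list, for CK2α (left) and vehicle Pol II (right), with exact 95% intervals. The share with a centre within 1 kb falls from 94.2% to 48.4% along the CK2α list and from 73.2% to 14.8% along the Pol II list, and grey triangles, regions whose nearest partner is over 10 kb away, rise.

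Order in the lists was related for neighbours that did not overlap as much as for those that did. Over the 5550 CK2α regions beside Pol II, the places of both partners had a Spearman's rho of 0.513, and over the 4929 overlapping ones it was 0.517; these describe regions of single libraries that share positions and depth. Of the CK2α regions in the first 10% of their list with Pol II within 1 kb, 618 of 1262 (49.0%, 46.2 to 51.8%) had a partner in the first 10% of the Pol II list, and 34 (2.69%) had one in the last 50%. In the last 10% of the CK2α list the numbers were 11 of 648 (1.70%) and 342 (52.8%). Partners of beside regions stood at a median of 28.6% of the Pol II list and partners of overlapping regions at 36.2%.

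The first 10 CK2α regions without overlap show this arrangement early in the list. Of these, 8 had a Pol II centre between 207 and 575 bp away. At chr17:39845520-39845720 (place 15) Pol II was centred 436 bp away at place 99, and at chr6:111196377-111196577 (place 23) it was 455 bp away at place 85. The CK2α region at chr6:74230038-74230238 (place 27) stood 575 bp from the Pol II region at place 35, and that at chr3:186501840-186502040 (place 32) stood 530 bp from the Pol II region at place 28. At chr11:49229771-49229971 (place 28) Pol II was 207 bp away at place 310, and at chr1:155107943-155108143 (place 37) it was 336 bp away at place 95. For these 6 CK2α regions the nearest TBBz Pol II centre was 419, 434, 561, 508, 200 and 350 bp away in the order given, each within 22 bp of the vehicle distance. The region at chr1:155232210-155232410 (place 34) stood 209 bp from vehicle Pol II at place 353 and 309 bp from TBBz Pol II. An exception, both in order and in the TBBz list, was chr19:50490503-50490703 (place 25). It had a late vehicle Pol II region, place 17157, at 239 bp and no TBBz Pol II centre nearer than 37979 bp.

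A small number of leading CK2α regions had no Pol II at hand. They included chr11:66189155-66189355 (place 7), 17018 bp from the nearest Pol II centre, chr19:51297700-51297900 (place 31, 10033 bp), chr4:1404302-1404502 (place 38, 13884 bp), chr19:57149417-57149617 (place 39, 42824 bp) and chr9:128845059-128845259 (place 41, 178341 bp). In the first 100 CK2α regions 8 were over 10 kb from Pol II, and in the first 1000 there were 34, against 1979 of all 13382. The 1979 CK2α regions over 10 kb from vehicle Pol II stood at a median of 80.7% of the list, with a median distance of 34.7 kb (quartiles 18.7 and 82.9 kb). They were also more isolated from other CK2α regions of the list: 10.7% had another CK2α centre within 10 kb, against 34.4% of those within 1 kb of Pol II. In the TBBz Pol II list, 267 of the 1979 (13.5%) had a centre within 1 kb, and 1578 CK2α regions (11.8% of the list) had no Pol II centre of either list within 10 kb.

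Leading Pol II regions without CK2α were more common than leading CK2α regions without Pol II, but less common than in the whole Pol II list. Among the first 100 Pol II regions 29 had no CK2α centre within 1 kb, against 52.5% of the whole list. None within 10 kb was found for 23, against 9405 of all 21819. Among the first were chr6:32939902-32940102 (place 10), with the nearest CK2α centre 77932 bp away, chr11:65190215-65190415 (place 11, 31953 bp), chr17:43225796-43225996 (place 17, 12536 bp), chr12:125399035-125399235 (place 20, 12715 bp) and chr11:65266448-65266648 (place 29, 21680 bp). Each of these had a TBBz Pol II centre within 53 bp. Among the first 10 Pol II regions, 8 overlapped CK2α, and chr19:2051082-2051282 at place 5 had a CK2α centre 238 bp away at place 81. The remaining region is the chr6 region at place 10 named above. Over the first 100 Pol II regions, 33 overlapped CK2α.

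Grouped into loci, runs of regions of either list with less than 10 kb between neighbouring centres, CK2α and Pol II shared most places where CK2α was found. There were 18726 loci, of which 9020 held both, 7843 held Pol II only and 1863 held CK2α only, so that 82.9% of the loci with CK2α also held Pol II (82.2 to 83.6%). The commonest shared locus, with 5420 cases (60.1%), had 1 region of each. CK2α-only loci were nearly always a single region (94.8%), and 4 had 3 regions, among them chr17:39058198-39059851 and chr7:89828402-89829943. The chr7 locus held 1 TBBz Pol II region and the chr17 locus none. The share of loci with CK2α rose with the number of Pol II regions in the locus: 49.0% with 1 Pol II region, 67.1% with 2, 73.9% with 3 and 84.0% with 4. Likewise, CK2α regions with 1 Pol II centre within 10 kb overlapped Pol II in 37.7% of cases, those with 2 in 52.0% and those with 3 in 58.2%. More Pol II regions offer more places to meet CK2α, which was not adjusted for. The share of these CK2α regions with Pol II within 1 kb was 90.4%, 94.7% and 95.5%. Per Pol II region, a CK2α centre within 1 kb was found for 46.9%, 48.5%, 45.8% and 49.3%. These had 0, 1, 2 and 3 other Pol II centres within 10 kb. With 4 the share was 77.6%, and with 5 or more it was 83.3%.

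Strings of Pol II with no CK2α, 190 loci, were the smaller part of the loci with 3 or more Pol II regions. CK2α was present in 73.9% of the 605 loci with 3 Pol II regions. It was present in 84.0% of the 144 with 4 and 89.4% of the 85 with 5 or more, against 49.0% with 1. The longest string was chr1:84623754-84659269, with 7 Pol II regions between places 10712 and 16194 of the list, 5 TBBz Pol II regions, and no CK2α centre within 78.5 kb of any of its Pol II regions. Next came chr19:1848324-1864967, chr7:100201678-100231219 and chr9:139940525-139981581 with 6 Pol II regions each. At chr15:99331407-99352760, 5 late Pol II regions (places 17770 to 20858) had no TBBz Pol II region among them.

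The loci with the most CK2α regions were of another kind. The first was chr2:92267546-92324301 with 16 CK2α and 18 Pol II regions. It was followed by chr16:46386599-46443905 (15 and 13), chr10:42364662-42418394 (9 and 9), chr16:33865165-33901776 (9 and 6), and chr10:39114041-39151263 (8 and 8). In the chr2 locus all 16 CK2α regions overlapped Pol II, and 13 were within 10 bp of a Pol II centre. Of the 10 leading loci, 8 were found no more than 1 Mb from a gap of 2 Mb or longer that held no region in any list, and in these 8 the median distance between CK2α and Pol II centres was between 0 and 26 bp. Of those away from such gaps, the chr16 locus that starts at 33865165 had a median of 13 bp. The other was chr19:49617540-49668920, with 7 CK2α and 9 Pol II regions and a median distance of 259 bp. Farther down the ranking away from gaps, medians were 9.5 bp at chr16:33963146-33975310, 13.5 bp at chr2:132986973-133026870 and 12 bp at chr17:45213031-45221390. The rest of the 10 loci with most CK2α away from gaps had medians from 81 to 1500 bp. Coincidence within 10 bp was found for 14.4% of the CK2α regions near such gaps (12.6 to 16.3%) and for 2.95% elsewhere (2.65 to 3.26%). The part of background signal in these coincident regions was not tested.

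**Figure D4:**
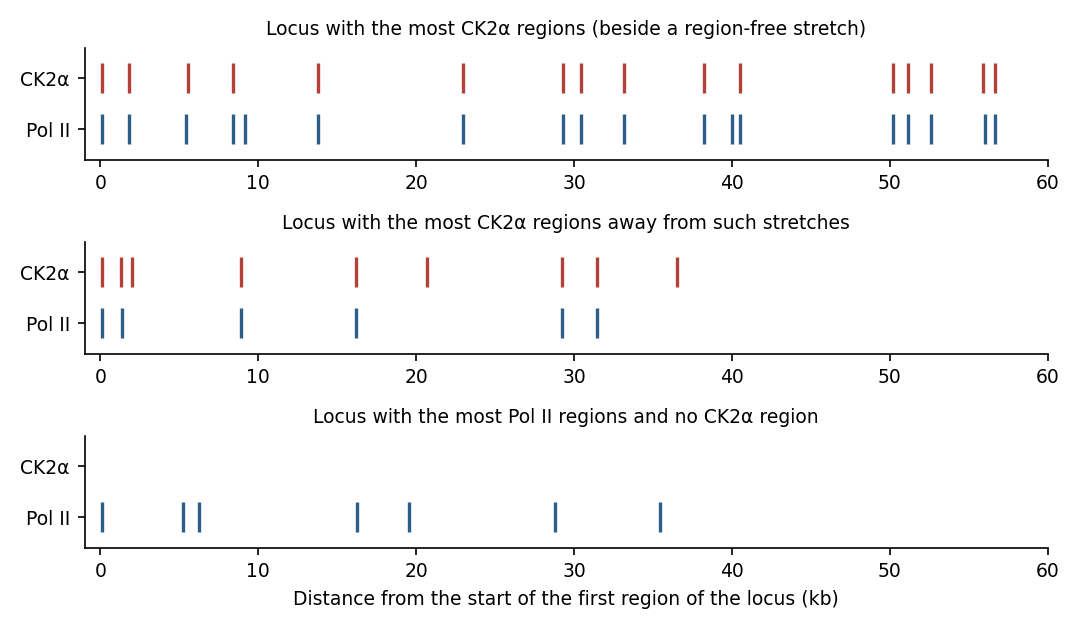
Positions of region centres at 3 loci, in kb from the start of the first region, with 1 tick per CK2α region (red) or vehicle Pol II region (blue). In the upper locus (chr2, 16 CK2α and 18 Pol II regions) every CK2α tick has a Pol II tick at or close to its place, in the middle locus (chr16, 9 and 6) 6 of the CK2α regions overlap Pol II, and the lower locus (chr1) has 7 Pol II regions and no CK2α region.

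The regions near gaps of 2 Mb or longer made up 10.7% of the CK2α list and 9.30% of the Pol II list, and the main values changed little when they were left out. Without them CK2α overlap was 36.5%, the share within 1 kb 78.6%, the median distance 223 bp, the share of CK2α pairs enclosing Pol II 68.6% and that of Pol II pairs enclosing CK2α 35.1%. Of the first 100 CK2α regions, 12 were near such gaps, among them places 1, 4, 5, 6 and 8, each overlapping Pol II. In the first 10% of the CK2α list the overlap was 55.4% and the median distance 144 bp with all regions near gaps left out. One pattern changed more. Pol II regions with 4 other Pol II centres within 10 kb overlapped CK2α in 60.5% of cases (46 of 76), and in 39.3% (11 of 28) without those regions, where the interval reached from 21.5 to 59.4%. With 5 or more, the overlap of 73.8% (31 of 42) became 0 of 2. With none or 1 other Pol II centre, the shares were 21.8% and 23.1%, near the 22.6% of the whole list.

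The overlap of CK2α with Pol II varied between chromosomes. It was 48.8% on chromosome 19 (45.4 to 52.3%, 398 of 815), where 87.5% of CK2α regions had Pol II within 1 kb and 6.63% were over 10 kb away. On chromosome 8 it was 30.0% (26.1 to 34.0%) and on chromosome 3 it was 30.6% (27.6 to 33.8%), with 19.3% and 20.2% over 10 kb away. The 24 chromosomes had between 1.29 (Y) and 2.04 (X) Pol II regions per CK2α region, with 1.83 on chromosome 19 and 1.43 on chromosome 3. Overlap did not simply follow this ratio: on X, and on chromosome 22 with a ratio of 1.94, it was 37.9%. Chromosome Y had the highest overlap, 69.0% (55.5 to 80.5%), but 56 of its 58 CK2α regions were near a long region-free gap. Of the Pol II regions, 26.6% overlapped CK2α on chromosome 19 (24.4 to 29.0%) and 21.4% on chromosome 3 (19.1 to 23.8%). With regions near long gaps left out, these overlaps were 26.1% and 21.3%. The share of Pol II regions with CK2α within 1 kb differed less, with 48.1% on chromosome 19 and 49.2% on chromosome 3. Without regions near long gaps these shares were 47.8% and 48.3%.

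**Figure D5:**
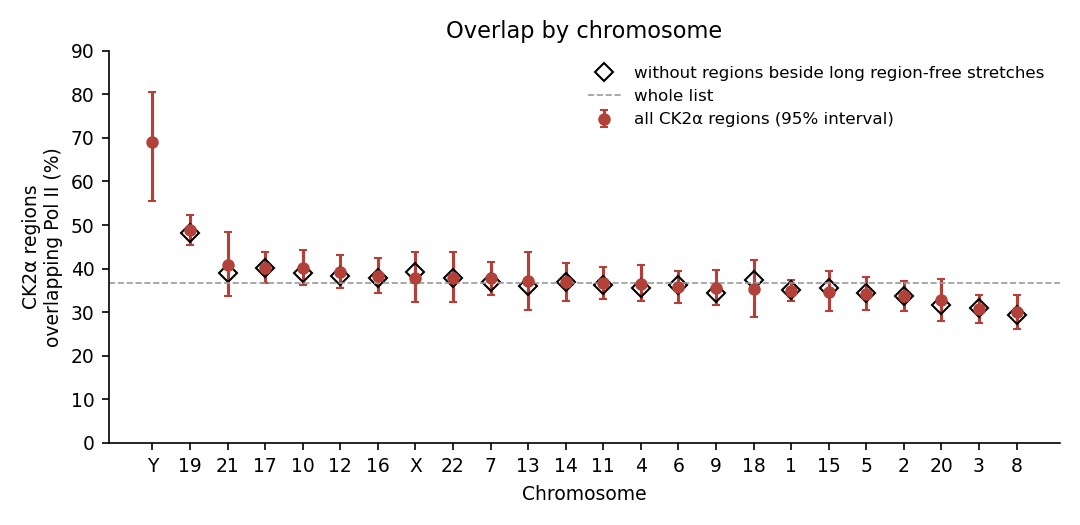
Share of CK2α regions that overlap vehicle Pol II (%) by chromosome, with exact 95% intervals; diamonds leave out regions near long region-free gaps where at least 100 CK2α regions remain. Apart from Y, chromosome 19 is highest at 48.8% and chromosome 8 lowest at 30.0%; the dashed line is the whole list, 36.8%.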

How the data were processed

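ChIP-seq reads of 1 CK2α and 1 vehicle Pol II library had been aligned with Bowtie to hg19 and turned into regions with HOMER, per the submitters' processing notes, with versions not given in the sources used here. Candidates within each library were kept if they stood 4-fold above the surrounding 10 kb, with a minimum distance of 500 bp and no control library, as the file headers state. The deposited score is 1 for every region, so only position, width (201 bp) and order in the list were used. Samples were grouped by their treatment and antibody labels.

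Centre distances, overlap (at least 1 bp), loci (gaps under 10 kb), pairs, 100 kb windows and 10% sections of each list were computed with Python 3.11.15, NumPy 2.4.6 and pandas 2.3.3, and exact 95% intervals with SciPy 1.17.1; figures were drawn with Matplotlib 3.10.9. The code was tested on simulated data. Regions named were taken from the first 10 of each list and the first 10 without overlap or without the other factor within 1 kb. Not every region of these sets was named. The loci with most CK2α regions were also used. CK2α-only and Pol II-only loci were chosen after their values were seen. Members and lists were chosen with earlier results of these data known. Alternatives covered the overlap rule, the regions used, the distance window and the locus gap. Gene parts, gene lists and sequences were not analysed here.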

Additional observations from a re-analysis of the deposited data

How the results depend on the processing

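Of 32 alternative settings, 11 gave a value inside the counting interval of the main one and 21 did not. The 11 were the settings that left out regions within 1 Mb of long region-free gaps, for all 6 results, or kept chromosomes 1 to 22 and X only, for the 5 results where this was tried. The overlap of CK2α with Pol II (36.8%) was 66.8% with centres within 500 bp, 78.3% within 1 kb and 21.4% with at least 50% of a region shared. It was 35.5% in the upper 50% of each list and 28.5% with the Pol II list shortened to the length of the CK2α list. In the same order, the overlap of Pol II with CK2α (22.6%) was 40.3%, 47.5%, 13.1%, 21.8% and 28.5%. The median distance (219 bp) was 229 bp in the upper 50%, 239 bp with the shortened list, 175 bp counting only pairs within 500 bp and 227 bp within 2 kb. CK2α loci with Pol II (82.9%) were 80.3% with gaps under 5 kb, 86.1% under 20 kb and 69.7% with the shortened list. CK2α pairs enclosing Pol II (68.2%) were 62.7% in the upper 50% and 61.6% with the shortened list, and Pol II pairs enclosing CK2α (35.4%) were 38.0% and 39.7%. All alternatives for the pairs, and the locus setting without regions near gaps, were chosen after seeing the data. Stricter or shorter lists hold fewer regions by construction. The alternatives on gene parts were not run, for want of an hg19 annotation. No paired analysis was possible because there was 1 library a group.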
